A study of Mus musculus with 6 samples.

Results

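The genes described are 10 of the 55291 gene symbols in the count tables, chosen by name: the classical cadherins Cdh1 (E-cadherin), Cdh2 (N-cadherin) and Cdh3 (P-cadherin), the desmosomal cadherins Dsg2, Dsg3, Dsc2 and Dsc3, and the desmosomal plaque genes Dsp (desmoplakin), Jup (plakoglobin) and Pkp1 (plakophilin 1). All 10 were among the 17268 genes that passed the filter on low counts, and the naming rule used no measured value, although the set was proposed with earlier results of these data known. RNA was sequenced from 6 libraries of mouse mammary cells, with 2 libraries in each of 3 groups. The mice were 6 weeks old, in puberty, and of genotype Adgra3-lz/+, so that cells of every group, the Gpr125-negative cells included, carried 1 allele of Adgra3, the gene of Gpr125, in which lacZ replaces part of the coding exons. Blood and endothelial cells were depleted, cells with high CD49f, the α6 integrin chain, were kept, and β-galactosidase activity from the fusion divided them into Gpr125+ cells from the TEB-distal region, where the terminal end buds (TEBs) are, Gpr125+ cells from the nipple-proximal region, and Gpr125-negative cells, whose region the sample records do not give. Beside the biotinylated antibodies against blood and endothelial cells, the paper's methods list one against CD140a (Pdgfra), a marker of fibroblasts. Each library came from pooled mice, and the records do not say whether the libraries of a group were separate cell preparations, so p-values measure the spread between these libraries, part of which may be technical.

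Cadherins are transmembrane proteins that hold neighbouring cells together in a calcium-dependent way. Classical cadherins bind catenins and build adherens junctions on actin, whereas the desmogleins (Dsg) and desmocollins (Dsc) build desmosomes, in which plakoglobin and the plakophilins link them to desmoplakin and desmoplakin holds keratin filaments. In the mammary gland E-cadherin is best known from luminal cells and P-cadherin from the basal layer and the cap cells of the TEB. Dsg2 and Dsc2 are the broad pair found in simple epithelia, and Dsg3 and Dsc3 are best known from the basal layers of stratified epithelia.

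Total counts were between 20134890 and 37296640 per library. The smallest level this depth could show, taken as 3 counts, lay between 0.0804 and 0.149 CPM. That limit covers counting error only, because no molecular identifiers were used. Levels are given as CPM (counts scaled by library total and TMM factor), replicate 1 before replicate 2, or as CPM per kb of exon where genes are compared with each other. Replicates lay far apart. The correlation of log2 CPM across genes was 0.733 between the Gpr125-negative libraries, 0.791 between the TEB-distal libraries and 0.933 between the nipple-proximal libraries, the median standard deviation (SD) within groups was 1.10 on the log2 scale, and the mitochondrial share of counts ran from 0.301% in Gpr125-negative replicate 1 to 3.15% in TEB-distal replicate 1. Adgra3 itself was at 35.7 and 18.6 CPM in the libraries labelled Gpr125-negative, at 15.0 and 4.83 CPM among TEB-distal libraries and at 19.2 and 12.3 CPM among nipple-proximal libraries, so its mRNA was not lower in the cells sorted as negative for the reporter. Endothelial markers (12 genes, among them Pecam1, the CD31 gene) summed to 1398 and 879.2 CPM among Gpr125-negative libraries, 22.6 and 22.1 CPM among TEB-distal libraries and 234.8 and 27.1 CPM among nipple-proximal libraries, although CD31+ cells had been depleted. Epcam, an epithelial surface marker, was between 429.8 and 1072 CPM in all 6 libraries, and Krt14, a basal keratin, between 806.6 and 4697 CPM.

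Promoter sequences ran from 250 bases before to 50 bases after the RefSeq start (GRCm38.p6). Among the 10 genes they were at hand for Dsp and Jup only, and they are shown for that reason. The E-box CACCTG, which the repressors Snai1, Snai2, Zeb1 and Zeb2 are known to read, was searched on both strands. The Dsp window held it 1 time, on the other strand and 3 bases past the start (capitals), and the Jup window 0 times. Of 32851 promoter windows of the same length, 20.2% held it. A match is a run of letters and not a measured binding site. Whether it bears on the level of Dsp or Jup was not tested.
Dsp, chr13:38151044-38151343, + strand: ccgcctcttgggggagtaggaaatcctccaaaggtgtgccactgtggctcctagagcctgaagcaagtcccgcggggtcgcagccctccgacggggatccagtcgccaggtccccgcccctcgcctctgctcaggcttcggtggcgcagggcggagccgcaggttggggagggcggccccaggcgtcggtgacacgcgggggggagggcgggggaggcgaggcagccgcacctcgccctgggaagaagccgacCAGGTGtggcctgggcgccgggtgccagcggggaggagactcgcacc
Jup, chr11:100397741-100398040, - strand: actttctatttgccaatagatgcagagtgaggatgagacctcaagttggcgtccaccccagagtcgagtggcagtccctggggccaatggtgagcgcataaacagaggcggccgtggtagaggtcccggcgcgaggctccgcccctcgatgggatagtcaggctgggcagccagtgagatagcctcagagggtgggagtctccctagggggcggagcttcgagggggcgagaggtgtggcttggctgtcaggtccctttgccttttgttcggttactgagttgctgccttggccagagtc

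The genes fall into clusters on the mouse genome (GRCm38, GENCODE M21). Cdh3 (chr8:106510891-106557297, + strand) lies 46.1 kb before Cdh1 (chr8:106603351-106670246, + strand). On chromosome 18, Dsc3 (chr18:19960930-20002351, - strand) lies 28.3 kb from Dsc2 (chr18:20030633-20059554, - strand), and Dsg3 (chr18:20510274-20547459, + strand) lies 10.6 kb from Dsg2 (chr18:20558074-20604521, + strand), with Cdh2 (chr18:16588877-16809246, - strand) on the same chromosome. Dsp (chr13:38151294-38198577, + strand), Jup (chr11:100368958-100397763, - strand) and Pkp1 (chr1:135871395-135919207, - strand) are on 3 other chromosomes. All 10 are protein-coding. Dsg2 shares exon bases with the antisense gene Gm16090, and Dsp with Gm10129 on the other strand. The counts were made without regard to strand, so reads that fall in the shared bases cannot be assigned to the gene or its partner.

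Plakoglobin and desmoplakin gave the highest mean levels of the 10 genes. Per kb of exon, the mean over 6 libraries was 49.2 CPM for Jup, 31.2 for Dsp, 25.9 for Cdh1, 9.72 for Cdh3, 6.64 for Dsg2, 6.53 for Pkp1, 1.01 for Cdh2, 0.993 for Dsc2, 0.181 for Dsg3 and 0.0995 for Dsc3. Of the 9 pairs of neighbours in this order, only Pkp1 and Cdh2 had ranges over the libraries that did not meet, at 2.64 to 11.4 and 0.419 to 1.65 CPM per kb. Cdh1 was above Cdh3 in 6 of 6 libraries, Jup above Dsp in 5 of 6 and Dsp above Cdh1 in 4 of 6. The ranges of each of these pairs overlapped. Dsg3 was at 0 in 1 library and Dsc3 in 3 libraries. The plot of log2 CPM by library shows this order, and how far the replicates of a group lay from each other.

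**Figure D1:**
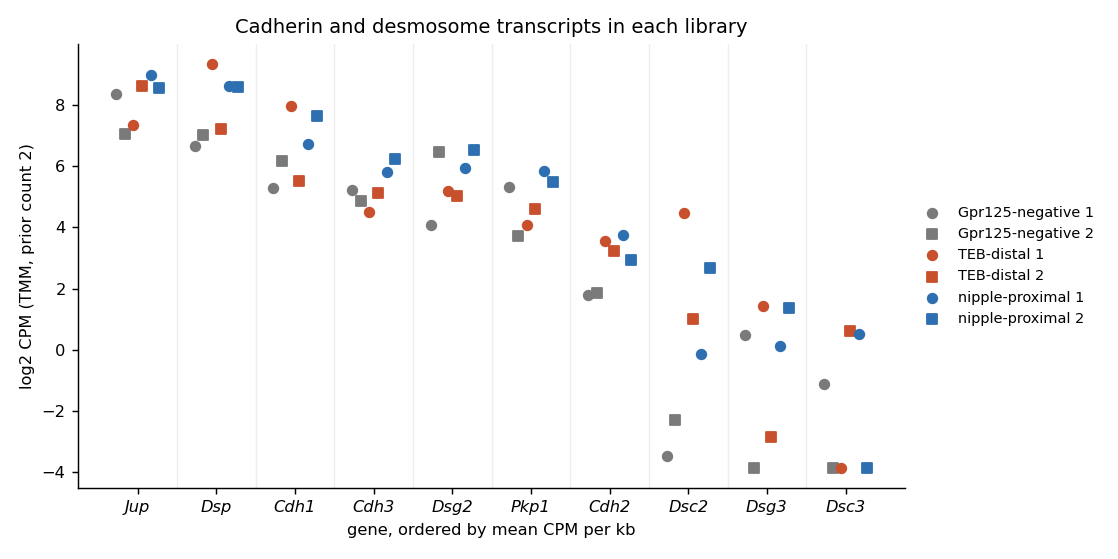
Level of each gene in each of the 6 libraries, as log2 CPM with TMM scaling and a prior count of 2 (y axis), with genes ordered by mean CPM per kb (x axis). Circles are replicate 1 and squares replicate 2 of the Gpr125-negative (grey), TEB-distal (orange) and nipple-proximal (blue) groups. The marks at -3.85 are libraries with 0 counts of Dsg3 or Dsc3, and the Gpr125-negative marks of Dsc2 and Cdh2 lie below all 4 Gpr125+ marks.

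Among the classical cadherins, E-cadherin was the most abundant transcript in all 6 libraries. Cdh1 was at 39.4 and 71.4 CPM among Gpr125-negative libraries, 248.1 and 45.9 CPM among TEB-distal libraries and 106.6 and 198 CPM among nipple-proximal libraries. TEB-distal replicate 1 was the highest of all and TEB-distal replicate 2 lay between the Gpr125-negative libraries, whereas both nipple-proximal libraries were above both Gpr125-negative libraries. Its fitted log2 fold change against Gpr125-negative cells was 1.41 (SE 0.91) for TEB-distal cells and 1.46 (SE 0.91) for nipple-proximal cells, with adjusted p = 0.997 and 1 (edgeR quasi-likelihood test, Benjamini-Hochberg adjustment over all genes tested, as for every adjusted p below unless another tool is named). Without TEB-distal replicate 1 the TEB-distal value was -0.29.

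P-cadherin followed another order. Cdh3 was at 37.3 and 29.2 CPM among Gpr125-negative libraries, 22.7 and 34.9 CPM among TEB-distal libraries and 56.4 and 75.2 CPM among nipple-proximal libraries. The nipple-proximal libraries were the highest, and the TEB-distal and Gpr125-negative libraries overlapped. For Cdh3 the log2 fold change was -0.21 (SE 0.64) for TEB-distal cells and 0.98 (SE 0.65) for nipple-proximal cells with the Gpr125-negative libraries as reference, and -1.19 (SE 0.65) for TEB-distal against nipple-proximal cells, each with adjusted p = 1. Leaving out any single library kept the last value between -1.55 and -0.85.

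N-cadherin, the cadherin of neural and mesenchymal cells, was low but separated Gpr125-negative from Gpr125+ libraries, while the Gpr125+ groups overlapped each other. Cdh2 was at 3.38 and 3.56 CPM among Gpr125-negative libraries, 11.8 and 9.23 CPM among TEB-distal libraries and 13.3 and 7.67 CPM among nipple-proximal libraries. All 4 Gpr125+ libraries were above both Gpr125-negative libraries. The log2 fold change was 1.60 (SE 1.08) in each Gpr125+ group, which the test did not call (adjusted p = 1 in both), and it stayed between 1.40 and 1.76 for TEB-distal cells and between 1.15 and 1.95 for nipple-proximal cells when any single library was left out. The direction came with the reverse for Cdh5, the endothelial cadherin, which was at 138 and 59.3 CPM among Gpr125-negative libraries against 4.80 and 0.0340 CPM among TEB-distal and 26.0 and 1.60 CPM among nipple-proximal libraries.

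Within a library, the ratio of P-cadherin to E-cadherin per kb does not depend on scaling. It was 0.986 and 0.427 among Gpr125-negative libraries, 0.0954 and 0.794 among TEB-distal libraries and 0.552 and 0.396 among nipple-proximal libraries. The TEB-distal replicates stood at nearly opposite ends, so that the group's mean log2 ratio was -1.86 ± 2.16 (SD, n = 2), against -0.62 ± 0.85 (SD, n = 2) in Gpr125-negative and -1.10 ± 0.34 (SD, n = 2) in nipple-proximal cells. These differences between groups were smaller than the spread between the TEB-distal replicates. Of the summed classical cadherin level per kb, Cdh1 made up between 49.1% (Gpr125-negative replicate 1) and 89.1% (TEB-distal replicate 1).

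**Figure D2:**
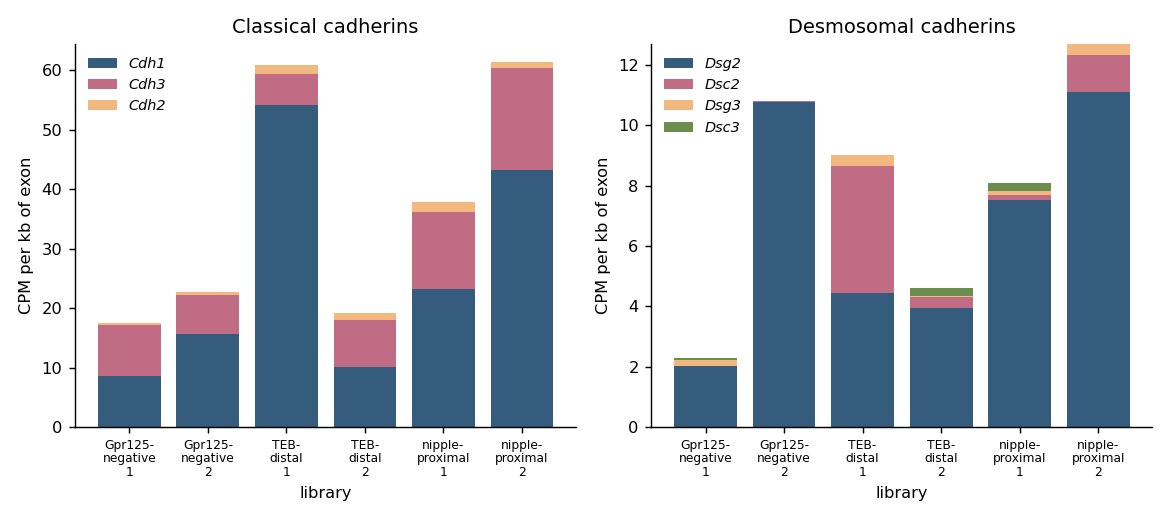
Stacked levels of the 3 classical cadherins (left) and the 4 desmosomal cadherins (right) in each library, in CPM per kb of exon. Cdh1 and Dsg2 make up most of nearly every bar, Dsc2 is visible in the Gpr125+ libraries and reaches 4.19 CPM per kb in TEB-distal replicate 1, and Dsg3 and Dsc3 stay at or below 0.374 CPM per kb.

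Desmocollin 2 was the gene with the widest differences. Dsc2 had 1 and 4 counts among Gpr125-negative libraries (0.0215 and 0.136 CPM), 567 and 57 counts among TEB-distal libraries (22.1 and 1.94 CPM) and 17 and 136 counts among nipple-proximal libraries (0.835 and 6.40 CPM). Every Gpr125+ library was above both Gpr125-negative libraries, while the 4 Gpr125+ libraries themselves ran from 0.835 to 22.1 CPM. Taken on summed counts, the ratio to the Gpr125-negative libraries was 172.4 in TEB-distal cells (95% interval 73.5 to 532.8) and 55.9 in nipple-proximal cells (23.4 to 174.6), and for single libraries it ran from 12.7 (4.49 to 44.0) in nipple-proximal replicate 1 to 336 (143.2 to 1039) in TEB-distal replicate 1. These are exact binomial intervals that cover counting error only.

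The fitted log2 fold change of Dsc2 was 7.23 (SE 2.25) for TEB-distal cells and 5.50 (SE 2.09) for nipple-proximal cells. edgeR did not call either, with adjusted p = 0.803 and 1, although both had p under 0.05 before adjustment. DESeq2 on the 4 compared libraries called both at an adjusted p under 0.1 and a change of 2-fold or more, with adjusted p = 0.00243 and 0.0876. The call depended on single libraries. With DESeq2 on 5 libraries, the TEB-distal call was lost without TEB-distal replicate 1 (log2 fold change 4.56, adjusted p = 0.281), and the nipple-proximal call without TEB-distal replicate 1 (5.34, adjusted p = 0.102), without nipple-proximal replicate 1 (6.19, adjusted p = 0.208) and without nipple-proximal replicate 2 (3.28, adjusted p = 1). The library with the most Dsc2, TEB-distal replicate 1, was also the highest of all 6 for Cdh1 and Dsp, and it had the highest mitochondrial share and the lowest Krt14, at 806.6 CPM. Basal markers did not all go with Krt14 there. Acta2 was at 1437 CPM in that library against 189.9 and 511.1 CPM among Gpr125-negative libraries, and Krt5 at 227 against 839 and 215.3 CPM. The 12 basal markers summed to 4017 CPM there, above both Gpr125-negative sums (3393 and 3554 CPM) and below the other Gpr125+ sums.

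Luminal markers went both ways in that library. The 14 luminal epithelial markers summed to 3218 CPM there, the highest sum, against 2829 CPM in TEB-distal replicate 2, 2847 and 1480 CPM among Gpr125-negative libraries and 3004 and 2312 CPM among nipple-proximal libraries. Esr1, the oestrogen receptor of hormone-sensing luminal cells, was at 31.9 CPM there and at most 3.15 CPM elsewhere, Prlr, the prolactin receptor, at 116.3 CPM and at most 16.5 CPM elsewhere, and Cldn4, a tight junction claudin, at 176.7 CPM and at most 92.3 CPM elsewhere. Krt7 (124.3 CPM) and Epcam (1072 CPM) were also highest there. Other defining markers did not follow, with Elf5 at 0 in that library and Krt8 at 1067 CPM, between the lowest (413.1 CPM) and the highest (1659 CPM) of the 6. Krt18 was at 478.5 CPM there and up to 879.6 CPM elsewhere, and Krt19 at 81.6 and up to 176.5 CPM. Cldn3 was at 23.7 CPM there and up to 88.2 CPM elsewhere, and Areg at 37.2 and up to 88.7 CPM. Kit and Pgr were at 2.9 and 0.195 CPM there, against up to 20.3 and 1.67 CPM elsewhere. The part of the luminal markers, the mitochondrial share, Krt14 and the other basal markers in the values of Cdh1, Dsp and Dsc2 was not tested.

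Desmoglein 2 was the main desmosomal cadherin. Dsg2 was at 16.7 and 89.2 CPM among Gpr125-negative libraries, 36.8 and 32.7 CPM among TEB-distal libraries and 62.3 and 91.9 CPM among nipple-proximal libraries. The Gpr125-negative replicates spanned nearly the whole range of the other groups, and the TEB-distal libraries were both below the nipple-proximal ones (log2 fold change -1.15, SE 0.85, adjusted p = 1). It was 49.4% of the summed desmosomal cadherin level per kb in TEB-distal replicate 1 and between 85.9% and 99.8% in the other 5 libraries.

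The desmoglein and desmocollin of stratified epithelia were the lowest of the 10 genes per kb, and their replicates disagreed. Dsg3 had 61 and 0 counts among Gpr125-negative libraries, 67 and 2 among TEB-distal libraries and 21 and 54 among nipple-proximal libraries. Dsc3 had 18 and 0, 0 and 43, and 28 and 0 counts in the same order. In every group 1 library had 0 counts of Dsc3 and the other had 18 or more, so the groups overlapped and the fold changes were imprecise (SE of the log2 fold changes 2.43 to 3.0 for the pair of genes). Summed per kb, Dsg3 and Dsc3 were 0.128, 0, 0.0434, 0.0650, 0.0523 and 0.0295 of Dsg2 and Dsc2 in the libraries in the order above. The means were 0.0640 ± 0.0905 for Gpr125-negative cells, 0.0542 ± 0.0153 for TEB-distal cells and 0.0409 ± 0.0161 for nipple-proximal cells (SD, n = 2 each), which differed by less than the spread between the Gpr125-negative replicates. Markers of the keratinocyte, the cell in which Dsg3 and Dsc3 are best known, summed to 19.3 to 100.6 CPM over 6 genes, with Flg, a defining marker of the cornified layer, at 0 in 6 of 6 libraries.

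Desmoplakin, the keratin-binding plaque protein, was at 101.5 and 131.6 CPM among Gpr125-negative libraries, 648.8 and 147.5 CPM among TEB-distal libraries and 393.5 and 385.9 CPM among nipple-proximal libraries. Every Gpr125+ library was above both Gpr125-negative ones, TEB-distal replicate 2 only just. The log2 fold change of Dsp was 1.77 (SE 0.85) for TEB-distal cells and 1.74 (SE 0.85) for nipple-proximal cells (adjusted p = 0.848 and 1). Without TEB-distal replicate 1 the TEB-distal value was 0.32, while the nipple-proximal value stayed between 1.43 and 1.95 whichever library was left out.

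Plakoglobin is shared by adherens junctions and desmosomes, and plakophilin 1 strengthens desmosomes in stratified and complex epithelia. Jup was at 329.7 and 133.1 CPM among Gpr125-negative libraries, 162.7 and 391.7 CPM among TEB-distal libraries and 505.7 and 376.2 CPM among nipple-proximal libraries. Only TEB-distal replicate 2 reached the nipple-proximal range. Pkp1 was at 40.3 and 13.2 CPM among Gpr125-negative libraries, 17.0 and 24.0 CPM among TEB-distal libraries and 57.3 and 45.0 CPM among nipple-proximal libraries, so that the nipple-proximal libraries were above the other 4. The log2 fold change of nipple-proximal against Gpr125-negative cells was 0.93 for both genes (SE 0.79 for Jup and 0.77 for Pkp1), and that of TEB-distal against nipple-proximal cells was -0.67 (SE 0.79) for Jup and -1.32 (SE 0.77) for Pkp1. All 4 had adjusted p = 1.

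Summed over the 7 desmosome genes, the level was 490 and 367.3 CPM among Gpr125-negative libraries, 890.1 and 599.4 CPM among TEB-distal libraries and 1022 and 908 CPM among nipple-proximal libraries. The group means were 428.7 ± 86.7, 744.7 ± 205.5 and 965 ± 80.6 CPM (SD, n = 2 each), and no Gpr125-negative library reached a Gpr125+ library. Scaled by library total alone, Gpr125-negative replicate 1 (610.6 CPM) was above TEB-distal replicate 2 (601.3 CPM), so this separation rested on the scaling. Jup and Dsp alone made up 72.1% to 91.2% of the sum. With 2 libraries against 2, a two-sided exact permutation test cannot give a p under 0.333, so this separation was not tested. In bulk libraries fewer cells with desmosomes and less desmosome RNA per cell cannot be told apart. The Gpr125-negative libraries, which had the lowest sums, also had the highest endothelial marker sums, and the 12 basal epithelial markers summed to 3393 and 3554 CPM in them against 4017 and 23031 CPM among TEB-distal and 9449 and 14952 CPM among nipple-proximal libraries. None of the 12 endothelial markers had a positive log2 fold change in either Gpr125+ group against Gpr125-negative cells. The part of these cells in the result was not tested.

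Against Gpr125-negative cells, TEB-distal cells had 3 of the 10 genes (Cdh2, Dsc2 and Dsp) with both libraries above both reference libraries, and 0 of 10 with both below. Over all genes tested these shares were 14.0% and 10%. edgeR called 0 of the 10 genes (0% of all genes, at adjusted p under 0.1 and 2-fold or more), and 1, Dsc2, had p under 0.05 before adjustment, against 6.05% of all genes. DESeq2 on the 4 libraries called 1, Dsc2, against 4.0% of all genes. The fitted log2 fold change was positive for 7 genes and negative for Cdh3, Dsg2 and Pkp1, with a median of 1.21 against 0.03 over all genes tested. The median was 0.19 without TEB-distal replicate 1 and 0.62 without TEB-distal replicate 2.

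Nipple-proximal cells had 7 of the 10 genes (Cdh1, Cdh2, Cdh3, Dsc2, Dsp, Jup and Pkp1) with both libraries above both Gpr125-negative libraries, against 19.9% of all genes tested, and 0 of 10 with both below, against 10.8%. Scaled by library total alone, 5 genes were left, without Jup and Pkp1. edgeR called 0 of the 10 (0% of all genes), Dsc2 alone had p under 0.05 before adjustment (3.55% of all genes), and DESeq2 on the 4 libraries called Dsc2 alone (2.02% of all genes). The log2 fold change was positive for all 10, from 0.54 for Dsg2 to 5.50 for Dsc2, with a median of 1.45 against 0.00 over all genes. Dsg2 turned to -0.35 without Gpr125-negative replicate 1, and Dsc3 to -5.61 without nipple-proximal replicate 1. This comparison shares its reference libraries with the one before it, so the values of the 2 comparisons are not independent of each other.

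**Figure D3:**
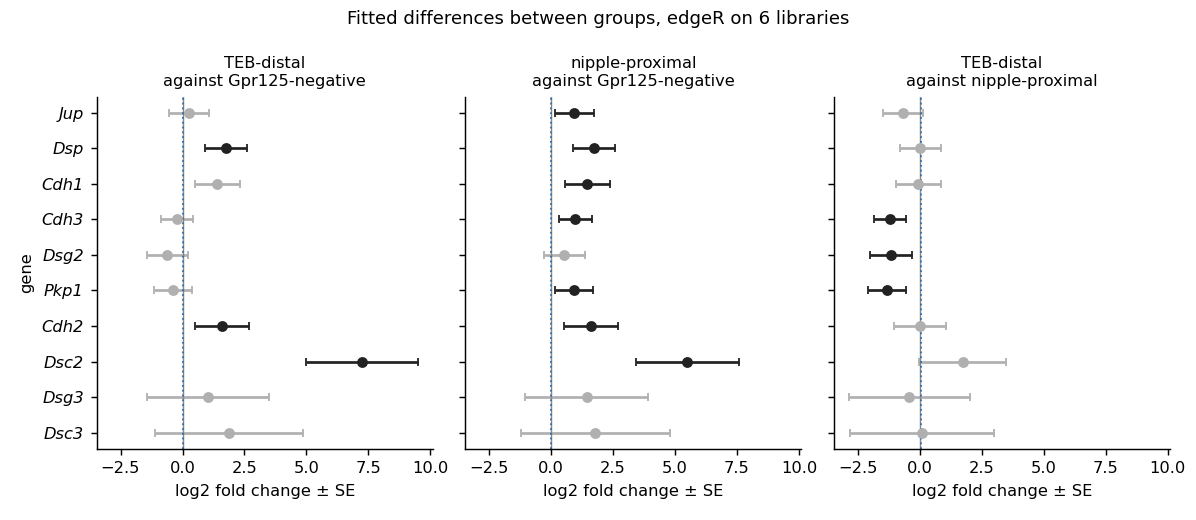
Fitted log2 fold change of each gene (points) with its SE (bars) in the 3 comparisons, from edgeR on 6 libraries. Black marks genes whose libraries did not overlap between the groups and grey those that did, and the dotted blue line is the median of all genes tested. Dsc2 lies farthest to the right in both comparisons with Gpr125-negative cells, at 7.23 and 5.50, and Cdh3, Dsg2 and Pkp1 lie to the left between the Gpr125+ groups.

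Between the Gpr125+ groups, which asks whether the tip and the nipple end of the tree differ, 3 of the 10 genes (Cdh3, Dsg2 and Pkp1) were lower across both TEB-distal libraries than across both nipple-proximal ones, against 18.3% of all genes, and 0 of 10 were higher in both, against 15.2%. edgeR called 0 of the 10 genes (0% of all genes) and none had p under 0.05 before adjustment (2.21% of all genes), and DESeq2 on the 4 libraries called none (2.29% of all genes). The median log2 fold change was -0.23 against 0.06 over all genes. Cdh3 at -1.19, Dsg2 at -1.15 and Pkp1 at -1.32 kept their sign whichever library was left out. Dsp at 0.03 and Cdh1 at -0.05 were near 0 only as means, with SEs of 0.82 and 0.89, since the TEB-distal replicates lay on either side of the nipple-proximal range for both genes.

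The genes split in how they went from library to library. TEB-distal replicate 1 was the highest of 6 libraries for Cdh1, Dsp, Dsc2 and Dsg3 and the lowest for Cdh3, while nipple-proximal replicate 1 was the highest for Jup and Pkp1. Measured as the distance between log2 CPM profiles centred on each gene's mean, Cdh1 had Dsp as its nearest of the other 9 genes (distance 0.88, rank 41 of 10847 genes), and Cdh3 had Pkp1 (1.05, rank 406). Jup was nearer to Pkp1 (0.83) than to Dsp (2.94), and Cdh3 nearer to Jup (1.14) than to its chromosomal neighbour Cdh1 (2.66). The plot of deviations shows this as a block of Cdh1, Dsp and Dsc2 that is red in TEB-distal replicate 1 and a block of Cdh3, Jup and Pkp1 that is blue there.

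**Figure D4:**
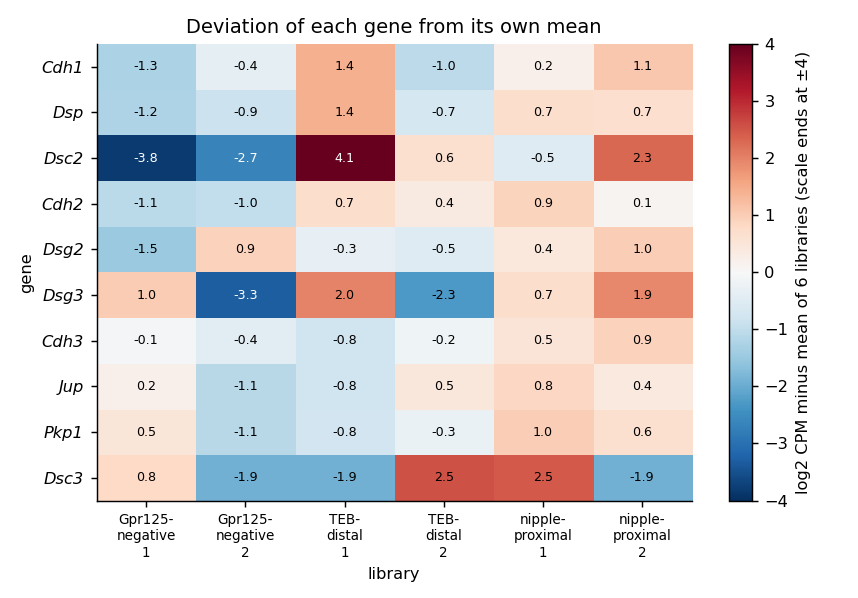
Deviation of each gene (rows) from its own mean of log2 CPM over the 6 libraries (columns), with red above and blue below the mean. Cdh1, Dsp and Dsc2 are above their mean in TEB-distal replicate 1 and nipple-proximal replicate 2, and Jup and Pkp1 are above it in both nipple-proximal libraries and in Gpr125-negative replicate 1.

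The genes with profiles nearest to these members were, for Cdh1, Atad2b (distance 0.53), Slc25a46 (0.54) and Slc39a6 (0.57), and for Dsp, Tmem135 (0.26), Itfg1 (0.54) and Fam110c (0.55). For Cdh3 they were Nfe2l1 (0.20), Ets2 (0.27) and Kdf1 (0.34). For Dsc3 the nearest, Ankrd9, was at 2.61, with Timp1 and Batf3 at 2.71 each. All were taken over 6 libraries and are descriptions.

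The ratio of Jup to Dsp, partners in the same plaque, moved with the ratio of Cdh3 to Cdh1. Per kb it was 4.87 and 1.52 among Gpr125-negative libraries, 0.376 and 3.98 among TEB-distal libraries and 1.93 and 1.46 among nipple-proximal libraries. Ordered from the highest, both ratios ran Gpr125-negative replicate 1, TEB-distal replicate 2, nipple-proximal replicate 1, Gpr125-negative replicate 2, nipple-proximal replicate 2 and TEB-distal replicate 1. The balance of long and short genes ran the other way, from lowest to highest in the same order but for the first pair of libraries, which changed places. The median deviation of genes with at least 4000 bp of exon, less that of genes with at most 2000 bp, was -0.14 and 0.31 among Gpr125-negative libraries, 0.34 and -0.66 among TEB-distal libraries and 0.11 and 0.32 among nipple-proximal libraries (log2 units). Dsp has 9659 bp of exon and Jup 6436, while Cdh1 and Cdh3 have 4574 and 4384. The part of gene length in these ratios was not tested.

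**Figure D5:**
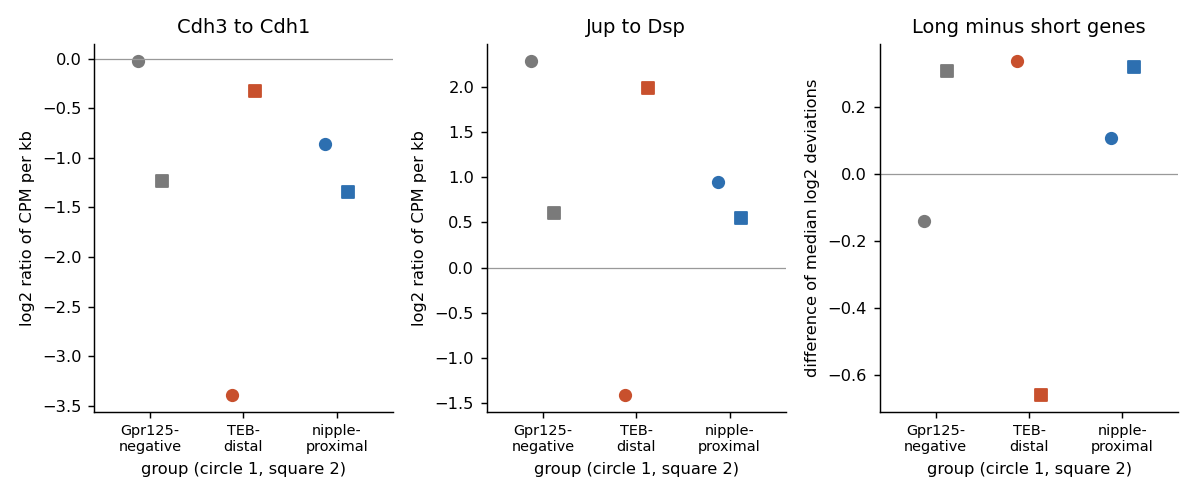
Log2 ratio of Cdh3 to Cdh1 (left) and of Jup to Dsp (middle) in each library, in CPM per kb, beside the median log2 deviation of long genes less that of short genes (right, log2 units). Circles are replicate 1 and squares replicate 2 of each group, and the TEB-distal replicates lie farthest apart in all 3 panels.

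Other genes of the same junctions were followed as lists, and edgeR called none of their genes in any comparison (0% of all genes). Before adjustment, Cdh5 and Zeb2 had p under 0.05 for TEB-distal cells and Vcl for nipple-proximal cells against Gpr125-negative cells. Krt7 did so between the Gpr125+ groups. Of all genes tested, 6.05%, 3.55% and 2.21% did so in these comparisons. The lists held 6, 10, 7, 9 and 8 tested genes, so the named genes do not stand out from those shares. Of 11 other desmosome genes, 6 were tested, and their median log2 fold change was 0.05 for TEB-distal cells and -0.01 for nipple-proximal cells against Gpr125-negative cells, beside 1.21 and 1.45 for the 10 genes above. Perp, a membrane protein of desmosomes, was at 179.8 and 395.3 CPM among Gpr125-negative libraries, 653.5 and 440.6 CPM among TEB-distal libraries and 492.4 and 445.7 CPM among nipple-proximal libraries, so that every Gpr125+ library was above both Gpr125-negative ones. Evpl, envoplakin, a desmoplakin relative of the cornified envelope, was at 4.21 and 10.2 CPM among TEB-distal and 0.540 and 0.424 CPM among nipple-proximal libraries, a difference that DESeq2 on the 4 libraries called (adjusted p = 0.0214) and edgeR did not (log2 fold change 3.89, SE 2.48, adjusted p = 1). Evpl was also at 15.3 and 0 CPM among Gpr125-negative libraries, which spans both groups.

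Of 12 adherens junction linkers, 10 were tested, with medians of 0.33 for TEB-distal cells and 0.47 for nipple-proximal cells. Their log2 fold changes were positive for 7 and negative for 3 in TEB-distal cells, and positive for 6 and negative for 4 in nipple-proximal cells. The lowest were Nectin3 in TEB-distal cells (-1.31, SE 1.07) and Nectin4 in nipple-proximal cells (-2.18, SE 1.42). Vcl, vinculin, which ties junctions and focal contacts to actin, was at 43.0 and 31.4 CPM among Gpr125-negative libraries, 31.0 and 82.1 CPM among TEB-distal libraries and 89.5 and 172.5 CPM among nipple-proximal libraries. The log2 fold change of Vcl was 1.82 (SE 0.75) in nipple-proximal cells (adjusted p = 1, and under 0.05 before adjustment). Ctnnd1, p120-catenin, which keeps cadherins at the membrane, was at 12.7 and 20.0 CPM among Gpr125-negative libraries and between 23.3 and 36.4 CPM in the Gpr125+ libraries, above both reference libraries in 4 of 4 (log2 fold change in TEB-distal cells 1.04, SE 0.71). Of 19 other cadherins, 7 were tested, with medians of 0.83 and 0.79, and Cdh5 was the only gene of the list that DESeq2 on the 4 libraries called, lower in TEB-distal than in Gpr125-negative cells (log2 fold change in edgeR -5.35, SE 2.03, DESeq2 adjusted p = 0.0564).

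Of 11 transcription factors known to act on the E-cadherin gene, 9 were tested, with medians of -0.13 for TEB-distal cells and -0.03 for nipple-proximal cells, and neither edgeR nor DESeq2 on the 4 libraries called any. Zeb1, a repressor of E-cadherin, was at 7.85 and 26.4 CPM among Gpr125-negative libraries, 5.85 and 0.987 CPM among TEB-distal libraries and 13.8 and 3.44 CPM among nipple-proximal libraries. Zeb2, its paralog, was at 1.27 and 42.4 CPM among Gpr125-negative libraries and between 0.897 and 2.36 CPM in the Gpr125+ libraries, so its log2 fold change of -4.12 in TEB-distal cells (SE 1.71) came with only 1 reference library above the Gpr125+ range. Cdh1 was higher in that replicate, at 71.4 CPM, than in Gpr125-negative replicate 1, at 39.4 CPM. Grhl3, a grainyhead factor of epithelial barrier genes, had 1 and 0 counts among Gpr125-negative libraries, 36 and 0 among TEB-distal libraries and 23 and 45 among nipple-proximal libraries.

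All 8 keratins that desmosomes anchor were tested, with medians of 0.99 for TEB-distal cells and 0.70 for nipple-proximal cells. Krt17, a keratin of basal cells, was at 678 and 1201 CPM among Gpr125-negative libraries, 834.8 and 5964 CPM among TEB-distal libraries and 2980 and 5271 CPM among nipple-proximal libraries (log2 fold change 1.86, SE 1.06, and 2.13, SE 1.07). Unlike Dsp, which was highest in TEB-distal replicate 1, Krt17 was there at its second lowest level. Krt15 was between 0.301 and 317.6 CPM, and its highest libraries were TEB-distal replicate 2 and nipple-proximal replicate 2. Krt7, a luminal keratin, was at 124.3 and 80.6 CPM among TEB-distal libraries and 20.6 and 11.3 CPM among nipple-proximal libraries (log2 fold change 2.68, SE 1.05), which DESeq2 on the 4 libraries called (adjusted p = 0.0137) and edgeR did not (adjusted p = 1). The Gpr125-negative libraries, at 105.8 and 11.4 CPM, spanned that difference as well.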

How the data were processed

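The cells were sorted by the authors, and RNA was amplified with the SMART-Seq HT kit, which copies full-length cDNA and adds no molecular identifiers. The authors aligned reads to mm10 with STAR (v2.7.3 in the submitters' processing notes, while the methods name another version) and counted reads per gene with HTSeq without regard to strand. The deposited files hold raw counts, one table per library. Groups, replicate numbers and age were taken from the labels, and no batch is given there. The 10 genes and the companion and marker lists were chosen with earlier results of these data known.

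The test was the quasi-likelihood test of edgeR 4.0.16 in R 4.3.3, with TMM scaling, the filterByExpr filter and robust fitting. All 6 libraries entered 1 model of 3 groups, and p-values were adjusted over 17268 genes. Calls needed an adjusted p under 0.1 and at least a 2-fold change, the study's thresholds. SEs were taken from the F statistic, log2 CPM used a prior count of 2, and CPM per kb used the union of exons in GENCODE M21, which held 96.4% of the symbols. All 10 genes were named with values. Of each companion list, up to 2 genes per direction and comparison with the largest log2 fold change could be named, of which those described were picked with their values known. Likeness was the Euclidean distance of centred log2 CPM among genes with a mean log2 CPM of at least 1. DESeq2 1.42.0, other size factors and filters, the replicate block and leaving out each library were alternatives, and DESeq2 without each library and the overlap of libraries under other scalings were added after seeing the data. Scripts were tested on simulated data. No replicates held the same counts.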

Additional observations from a re-analysis of the deposited data

How the results depend on the processing

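No edgeR setting or left-out library gave a call for any of the 10 genes. DESeq2 called 1, Dsc2, in TEB-distal and 1, Dsc2, in nipple-proximal against Gpr125-negative cells, on 6 libraries and on the 4 compared. Against 0 genes in edgeR in each comparison, DESeq2 on all 6 libraries called 943 (TEB-distal against Gpr125-negative), 321 (nipple-proximal against Gpr125-negative) and 129 (TEB-distal against nipple-proximal), DESeq2 on 4 libraries called 667, 317 and 360, and edgeR with no filter beyond 1 count called 137, 58 and 39. The cause was not tested. Leaving out 1 library gave 0 to 747, 0 to 335 and 0 to 12 genes. The replicate block rests on replicate numbers alone, since the records do not say whether a number marks a shared preparation and same-numbered deviations had correlations of -0.0347, 0.194 and -0.00495. It called 0 genes, with medians of 1.33, 1.5 and -0.39 for the 10 genes.

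The medians ran from 0.19 to 1.21, from 1.13 to 1.51 and from -0.94 to -0.24 with 1 library left out. Single genes that changed sign then were, for TEB-distal against Gpr125-negative, Cdh1 (-0.29 to 2.16), Cdh3 (-0.56 to 0.06), Dsg2 (-1.5 to 1.05), Dsg3 (-3.17 to 8.03), Dsc3 (-5.52 to 7.22), Jup (-0.51 to 0.94) and Pkp1 (-0.98 to 0.5). For nipple-proximal against Gpr125-negative they were Dsg2 (-0.35 to 2.21) and Dsc3 (-5.61 to 7.11), and for TEB-distal against nipple-proximal Cdh1 (-1.66 to 0.69), Cdh2 (-0.36 to 0.45), Dsg3 (-4.56 to 0.53), Dsc2 (-0.82 to 3.83 in edgeR and -0.78 to 3.99 in DESeq2), Dsc3 (-7.32 to 7.48) and Dsp (-1.34 to 0.72). In that comparison other settings turned Cdh1 to 0.10 (DESeq2 on 6 libraries, and DESeq2 size factors) and 0.01 (DESeq2 on 4), Cdh2 to -0.01 (no filter) and Dsp to -0.15 (replicate block). DESeq2 size factors took the median of all genes from 0.00 to -0.17 in nipple-proximal against Gpr125-negative and from 0.06 to 0.19 in TEB-distal against nipple-proximal. The cadherin ratios without length scaling, and the group means of the desmosome sums with library totals or DESeq2 size factors in place of TMM, moved by less than the spread between replicates. The genes whose libraries did not overlap were the same under DESeq2 size factors. With 2 libraries a group, differences in Dsg3 and Dsc3 could not be resolved from the spread between replicates.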
